A study of Oryza sativa with 12 samples.

Results

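The transcripts described here are 183 probe sets, groups of short probes that read a single transcript or a few related ones. Their log2 signal at 0H was higher in axes of rice seed kept at 40 °C than in axes of seed kept at 25 °C. They were selected on the 0H arrays alone. The mean at 40 °C had to exceed the mean at 25 °C by at least 0.6 on the log2 scale and to reach at least log2 5, and all 3 arrays at 40 °C had to lie above all 3 at 25 °C. They are 183 of the 57258 probe sets left without the manufacturer's 123 AFFX controls, a total that still holds 64 probe sets named RPTR. Of the 17650 probe sets that passed a filter on low signals (above log2 4 in at least 3 of the 12 arrays) they make up 1.04%, and all 183 passed it through their 0H level at 40 °C. Because the 0H arrays chose the members, their 0H differences are given as a description with no test. The tests use the 6 arrays of the 4H groups, which the rule did not touch.

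Mature seed of Oryza sativa cultivar Nipponbare was used throughout, and total RNA was read on Affymetrix Rice Genome Arrays, in 4 groups of 3 numbered replicates. The groups were 40 °C with the suffix 0H, 25 °C (the control) with the suffix 0H, 40 °C with the suffix 4H, and 25 °C with the suffix 4H. All seed was first held at 25 °C and 85% relative humidity for 3 days, then kept at its own temperature at that humidity for 14 days in the protocol, or 15 in the description, and finally dried for 3 days at 32% relative humidity and 25 °C. The labels do not define 0H and 4H. The protocol names the embryonic axis, the description names embryos and the tissue label reads seed. Nothing in the labels says that replicates came from separate seed lots, so the p-values describe only how these samples spread, and that spread may be technical. RNA was taken from whole pieces of tissue, so fewer cells of a type and less RNA per cell cannot be told apart.

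A dry seed carries messenger RNA made during maturation on the mother plant. Part of this stored RNA is translated when water is taken up, part is degraded, and new transcripts then replace it. Warm and humid storage is a common way to age seeds quickly in the laboratory, and RNA in such seeds is known to fragment over time. Transcripts of starch and storage protein synthesis belong mainly to the endosperm, the tissue beside the embryo that holds the reserves, whereas late embryogenesis abundant proteins and dehydrins mark the maturing embryo.

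Several arrays stood apart. The 3′ minus 5′ signal of the control transcript Gapdh, which grows when the 5′ parts of a transcript are missing or poorly copied, was 3.66 ± 0.29 at 40 °C and 2.24 ± 0.17 at 25 °C at 0H, and 2.77 ± 0.20 and 2.34 ± 0.09 at 4H (SD, n = 3). For Actin it was 3.33 ± 0.14 and 2.44 ± 0.06 at 0H, and 2.95 ± 0.15 and 2.97 ± 0.16 at 4H. Each of these differences except Actin at 4H had an exact two-sided permutation p of 0.1, the lowest value 3 arrays against 3 allow (adjusted p = 0.229 over 16 such tests). In 2 other control transcripts the 3′ minus 5′ signal differed less at 0H. For Ubiquitin it was −0.52 ± 0.04 at 40 °C and −0.66 ± 0.02 at 25 °C (permutation p = 0.1). For Cyclophilin it was 0.88 ± 0.13 and 0.69 ± 0.16, with overlap (permutation p = 0.3). At 0H the poly-A spike-in signal was 8.82, 8.85 and 4.83 at 40 °C and 4.56, 4.98 and 3.52 at 25 °C. At 4H it was 5.30, 4.20 and 6.18 at 40 °C and 3.87, 3.52 and 2.50 at 25 °C, without overlap. At 0H the 18S ribosomal RNA signal was 10.17, 10.97 and 7.87 at 40 °C and 11.88, 11.91 and 11.52 at 25 °C, and 28S was also lower at 40 °C without overlap. Replicate 3 at 25 °C and 4H had an 18S ribosomal RNA signal of 6.82, against 11.04 and 11.06 in the other replicates of that group. The part of RNA quality, amplification and these arrays in the results was not tested.

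Markers of the tissues that the sample could hold moved with some members. Of 9 endosperm genes, 4 were higher and 1 was lower at 40 °C without overlap at 0H, and 3 of the 9 have a member among the 183. Their summed level (log2 of the summed signals) was 11.60, 11.49 and 11.59 at 40 °C against 9.93, 10.19 and 10.99 at 25 °C at 0H. Without the 3 genes that have members, the other 6 summed to 8.57, 8.69 and 8.65 at 40 °C and 8.31, 8.62 and 9.04 at 25 °C, with overlap. At 4H the sum over all 9 was 10.76, 10.74 and 11.05 at 40 °C and 10.12, 10.68 and 11.47 at 25 °C. Replicate 3 at 25 °C was the highest of its group in the sums of both suffixes. Of 6 aleurone genes, 4 were higher and 0 lower at 40 °C without overlap at 0H, and 1 of the 6, AMY3A, has a member. They summed to 11.92 to 12.00 at 40 °C and 11.72 to 11.87 at 25 °C at 0H. Without AMY3A the other 5 summed to 11.93, 11.90 and 11.96 at 40 °C and 11.71, 11.76 and 11.85 at 25 °C, without overlap. The 6 markers of the embryo axis and scutellum, among them the shoot meristem gene OSH1, the seed regulator VP1 and dehydrins of the RAB16 family, summed to 14.11 to 14.14 at 40 °C and 14.10 to 14.14 at 25 °C at 0H. Of 3 green tissue genes, 2 stayed below log2 4 on all arrays. The 3 summed to 5.48 to 5.78 at 40 °C and 4.97 to 5.42 at 25 °C at 0H. At 0H 1 of these 3 and 1 of the 6 embryo markers were higher at 40 °C without overlap, and 0 were lower. At 4H the embryo markers summed to 13.57, 13.59 and 13.45 at 40 °C and 13.65, 13.67 and 13.83 at 25 °C, and the aleurone genes to 10.98 to 11.02 at 40 °C and 11.48 to 11.57 at 25 °C. Both sums were lower at 40 °C without overlap, and OSH1 averaged 3.78 at 40 °C and 5.79 at 25 °C. The part of these tissues' RNA in the members' differences was not tested.

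At 4H the 183 probe sets stood mostly on the same side as at 0H. By limma on the 6 arrays, 108 were higher and 25 lower at 40 °C than at 25 °C, and 50 did not pass the test, 4 of them with an unadjusted p under 0.05. Over all probe sets tested 30.6% were higher and 42.5% lower. The median 4H difference was 0.66 for the members and −0.16 for all probe sets tested, and 0.41 and −0.05 with values below log2 4 set to 4. All 3 arrays at 40 °C lay above all 3 at 25 °C in 107 members and below them in 28, where 32.0% and 44.3% of all probe sets tested did so. Among the tested probe sets whose 0H mean at 40 °C also reached log2 5, 3161 of 11525 were higher and 5436 lower.

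The members were of unlike kinds, and the kinds are visible in the array's own IDs, a feature the rule did not use and which was singled out after the values were seen. Of the 183, 77 have an ID that begins with OsAffx and 106 an ID that begins with Os. The OsAffx members were higher at 4H in 72 cases and lower in 2, and 3 did not pass. All their 25 °C arrays at 4H were below log2 4 in 43 of the 77, and with values below log2 4 set to 4 the median difference was 1.41 and 59 were called higher. The Os members were higher in 36 cases and lower in 23, and 47 did not pass, with a median difference of 0.20 (0.09 with values below log2 4 set to 4). An OsAffx ID by itself did not go with such a share: of 1973 tested OsAffx probe sets 742 were higher and 578 lower (median 0.12), and of 15677 tested Os probe sets 4656 were higher and 6918 lower (median −0.19). Without the OsAffx members the count of members higher at 4H was thus 36 of 106.

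**Figure D1:**
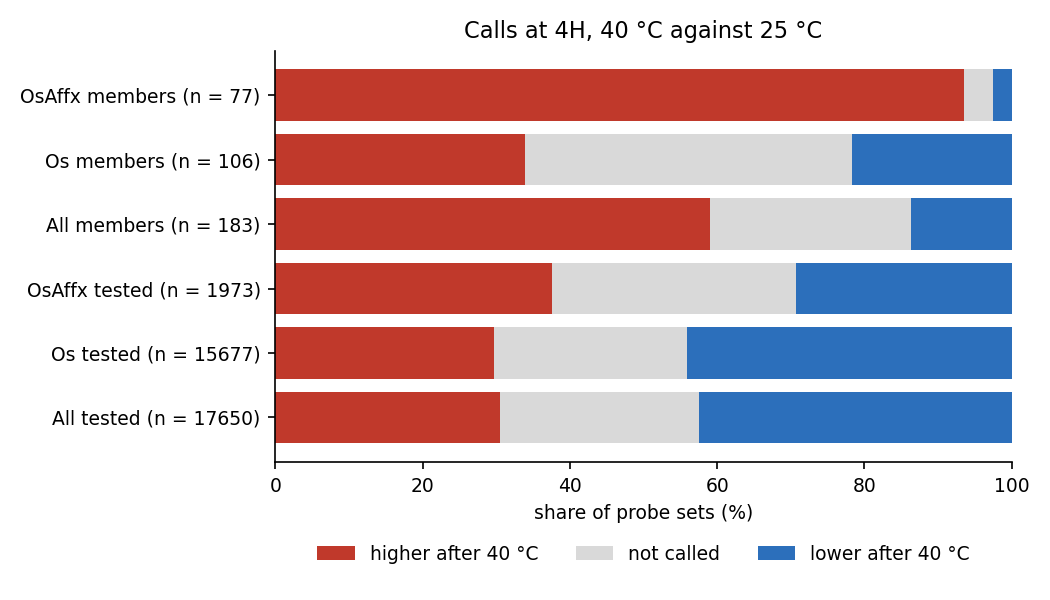
Share of probe sets (%) called higher, not called or called lower at 4H, 40 °C against 25 °C, by limma with adjusted p under 0.05, for the members and for all probe sets tested, split by the kind of array ID. Of the 77 OsAffx members 72 were called higher, against 36 of the 106 Os members.

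Annotation divided the members in a similar way. The annotation pairs 82 of them with exactly 1 gene (79 genes) and 3 with several, and it does not list the other 98. In all, 17 genes on 19 probe sets have a short name. The 85 listed members were higher at 4H in 28 cases and lower in 18, and the 98 that are not listed were higher in 80 and lower in 7. That is 32.9% and 21.2% of the listed members, and 81.6% and 7.1% of the others. Over all probe sets tested, not split by listing, 30.6% were higher and 42.5% lower, so the share of listed members called higher was near that of all. Only 5 OsAffx members are paired with 1 gene.

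The 0H differences ran from 0.60 to 2.96, with a median of 0.82. They reached 1 in 65 members, of which 45 are OsAffx, and 2 in 5 members. The 0H level at 40 °C ran from 5.01 to 12.37, with a median of 6.25. In 12 members the 25 °C mean at 0H was below log2 4. Just inside the threshold lay IAA20 (0.61), Os.32177.1.S1_at (0.60) and Os.18300.1.S1_at (0.60). Just outside it lay Os.10478.1.S1_at, ADPRT-1 and Os.40031.1.S2_s_at, each with a difference of 0.60 when rounded. Among the members 33 carry the suffix _x_at and 20 the suffix _s_at, which mark probes that can also match related transcripts.

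**Figure D2:**
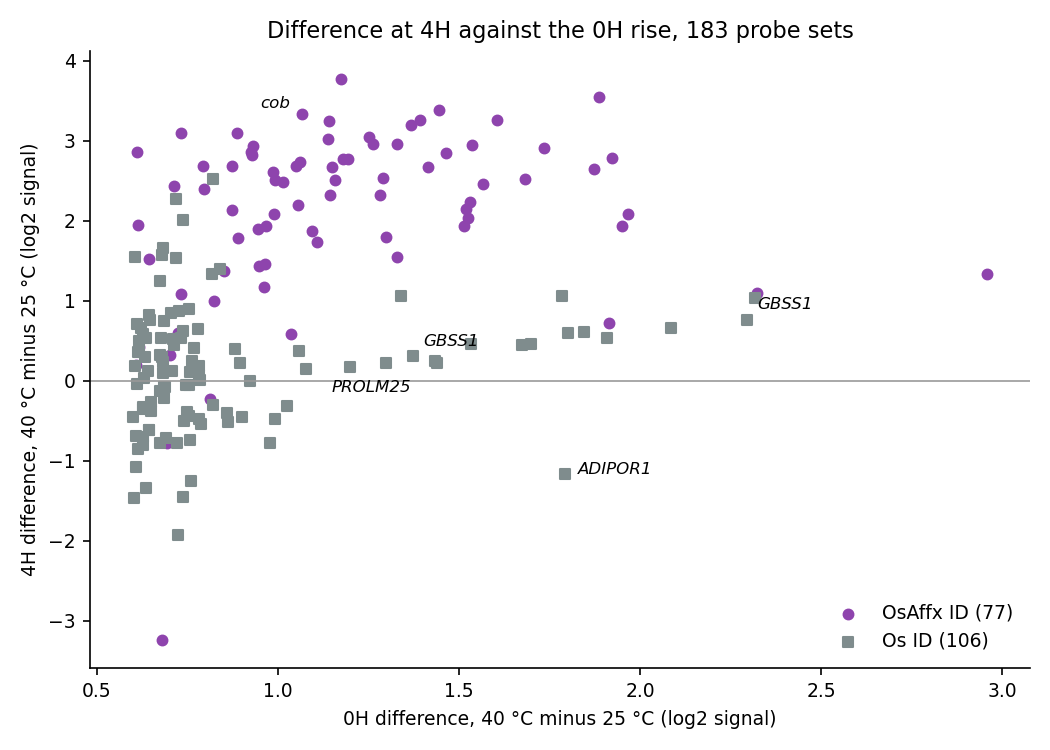
Difference in mean log2 signal at 4H (40 °C minus 25 °C, vertical) against the difference at 0H that chose the members (horizontal), 1 point per probe set. The OsAffx members lie mostly above 1 at 4H, whereas the 20 Os members with a 0H difference of at least 1 run from −1.17 (ADIPOR1) to 1.06, with a median of 0.45.

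Of 7 tested genes of starch synthesis GBSS1 and SBE have members, and the median 0H difference over the 7 was −0.01. GBSS1 encodes an amylose-forming starch synthase bound to the granule, and 2 of its 6 probe sets are members. The first of them, Os.11244.3.S1_x_at, read 8.93, 8.74 and 8.61 at 40 °C and 6.08, 6.21 and 7.09 at 25 °C at 0H. The 4H arrays read 7.89, 7.75 and 7.77 at 40 °C and 6.47, 7.02 and 7.64 at 25 °C. The groups did not overlap at either suffix, and at 4H the level at 40 °C was higher by 0.76 (SE 0.23, limma adjusted p = 0.0137). The second probe set, Os.11244.2.S1_x_at, had a 0H difference of 1.37 and a 4H difference of 0.30 (SE 0.25, limma adjusted p = 0.284). The 4H call of the first probe set was not kept when all values below log2 4 were set to 4 (adjusted p = 0.0781), although its difference stayed at 0.76. The second was called without replicate 3 at 25 °C (0.59, adjusted p = 0.0136), the highest array of its group there. Over the alternatives the difference of the second ran from 0.03 to 0.59.

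SBE, a starch branching enzyme, has 2 members among 8 probe sets. Os.22169.2.S2_x_at read 8.12, 7.99 and 8.09 at 40 °C and 7.44, 7.37 and 7.33 at 25 °C at 0H, a difference of 0.68. Its 4H signals were 6.71, 6.72 and 6.83 at 40 °C and 5.76, 6.07 and 6.22 at 25 °C, and it was higher at 40 °C by 0.74 (SE 0.13, limma adjusted p = 0.000437). Its other member, Os.22169.1.S1_a_at, differed by 0.24 at 4H (SE 0.17, limma adjusted p = 0.212). The difference was 0.39 without replicate 3 at 25 °C (adjusted p = 0.0320), the highest array of its group there, and ran from 0.14 to 0.39 over the alternatives. Of the 5 other tested genes of the starch list 3 were lower at 40 °C than at 25 °C at 4H, and none passed as higher. SSII-3 averaged 4.57 at 40 °C and 3.66 at 25 °C at 0H, without overlap, and 2.86 and 2.57 at 4H (limma adjusted p = 0.153). The starch synthase SSII-1 read 4.98 at 40 °C and 5.62 at 25 °C on average (−0.64, SE 0.12), and AGPS2, a subunit of ADP-glucose pyrophosphorylase, read 3.96 and 5.25.

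Of the seed storage proteins, RA14 and PROLM25 have members. RA14, a seed albumin of the allergen family, read 10.63, 10.53 and 10.66 at 40 °C and 8.65, 8.99 and 9.87 at 25 °C at 0H, a difference of 1.44. At 4H its signals were 9.90, 9.81 and 10.33 at 40 °C and 9.13, 9.72 and 10.52 at 25 °C. The 4H groups overlapped, since replicate 3 at 25 °C read above all arrays at 40 °C, and the difference was 0.22 (SE 0.29, limma adjusted p = 0.501). PROLM25, a prolamin, read 9.34, 9.10 and 9.39 at 40 °C and 7.56, 7.61 and 8.75 at 25 °C at 0H, a difference of 1.30. Its 4H difference was 0.22 (SE 0.27, limma adjusted p = 0.472). Without replicate 3 at 25 °C, the highest array of its group in both, both were called at 4H. RA14 then differed by 0.59 (adjusted p = 0.00822) and PROLM25 by 0.59 (adjusted p = 0.000712). Over the alternatives the 4H difference ran from −0.11 to 0.59 for RA14 and from −0.08 to 0.59 for PROLM25, so its sign was not fixed. Of the 7 other tested storage protein genes 6 were lower at 40 °C than at 25 °C at 4H. The glutelin GLUB-5 differed by −0.82 (SE 0.19). The globulin GLB had means under log2 4 (2.94 at 40 °C and 3.94 at 25 °C), so no size is given.

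Probe sets of some genes near RA14 in the order of a RefSeq annotation were also among the members. This stretch was singled out after the values were seen. Os.8005.2.S1_x_at and Os.8005.3.S1_x_at, each paired with both LOC4342729 and LOC4342730, the fifth and the sixth gene after RA14, differed by 1.67 and 1.53 at 0H. A further probe set of LOC4342729 differed by 0.75, and Os.5494.1.S1_at of LOC4342738, 16 genes after RA14, by 1.85. None of these 4 was called at 4H, with adjusted p of 0.120 to 0.631. RA17, the gene before RA14, and RA5, the fourth after it, belong to the same allergen family and are not members. Their 0H differences were 0.50 and 0.31, and at 4H both were lower at 40 °C than at 25 °C (−1.15 and −1.0049). Probe sets of related genes can share signal, so these are not independent readings. The other tested probe sets from OST48, 24 genes before RA14, to LOC4342746, 25 genes after it, are not members. Their 0H differences ran from −0.33 (LOC4342703) to 0.91 (LOC4342721).

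A pattern of arrays ran through the Os members with large 0H differences. Of the 20 with a 0H difference of at least 1, replicate 3 was the highest 25 °C array at 0H in 17 and at 4H in 18, against 31.7% and 40.7% of all probe sets tested. At 4H, 6 of the 20 were higher, 1 was lower (ADIPOR1) and 13 did not pass, with a median difference of 0.45. Without replicate 3 at 25 °C and 4H, 15 of the 20 were higher, with a median difference of 0.72. That array was the highest of its group in 18 of the 20, so leaving it out raised their differences by construction. Over all 17650 probe sets tested 5572 were higher without that array and 5398 with it. The OsAffx members were called higher in 73 of 77 cases without that array, and in 72 with it.

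AMY3A is an alpha-amylase, an enzyme that breaks down starch during germination. It read 6.16, 5.92 and 6.53 at 40 °C and 4.85, 5.60 and 5.90 at 25 °C at 0H, a difference of 0.75. At 4H all arrays of both temperatures were below log2 4, with means of 1.54 at 40 °C and 1.98 at 25 °C, so no size is given (SE 0.22, limma adjusted p = 0.102). It thus lay near or above log2 5 at 0H and below log2 4 at 4H at both temperatures. Of the 3 other tested alpha-amylases 2 were lower at 40 °C than at 25 °C at 4H, and 1 did not pass. AMY3E was lower by 1.27 (SE 0.10) and AMY1A by 0.96 (SE 0.17) on the log2 scale. From 0H to 4H the mean of AMY1A went up, from 4.62 to 8.95 at 40 °C and from 4.08 to 9.91 at 25 °C. That of AMY3E went down at both temperatures.

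**Figure D3:**
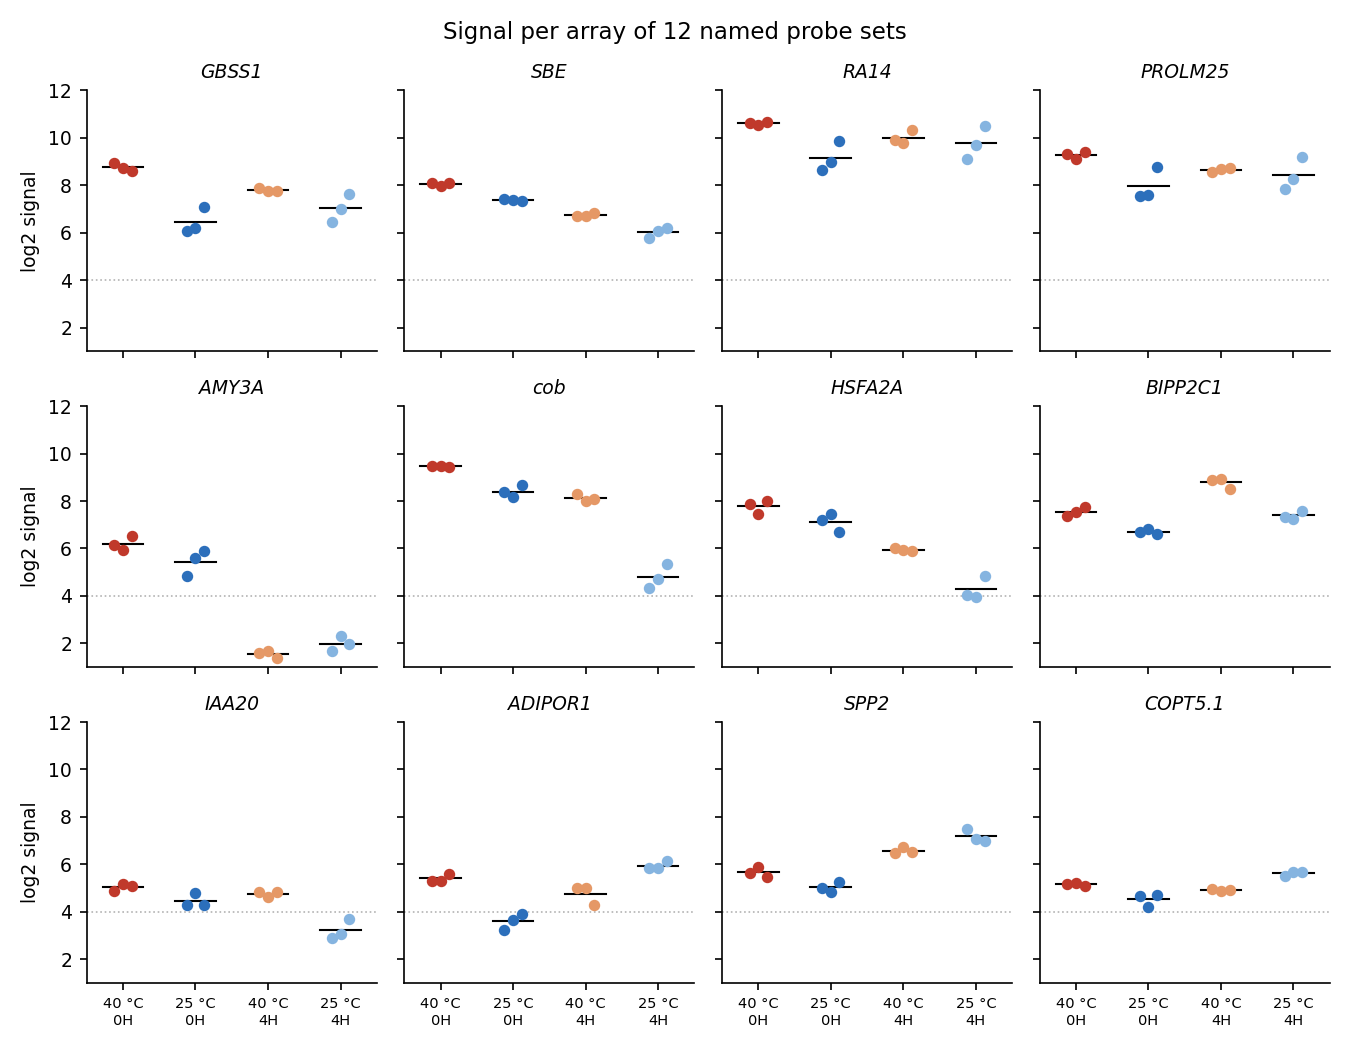
Log2 signal per array (vertical) of 12 member probe sets in the 4 groups, with 3 points per group, the group mean as a bar and log2 4 as a dotted line. The cob signal at 4H is 8.00 to 8.31 at 40 °C and 4.32 to 5.36 at 25 °C, and the 25 °C points of GBSS1, RA14 and PROLM25 spread more widely than those at 40 °C.

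The member with a name and the largest 4H difference was cob, the mitochondrial gene of cytochrome b, a subunit of respiratory complex III. It read 9.47, 9.47 and 9.45 at 40 °C and 8.37, 8.16 and 8.67 at 25 °C at 0H, a difference of 1.07. At 4H it read 8.31, 8.00 and 8.08 at 40 °C and 4.32, 4.72 and 5.36 at 25 °C. The level at 40 °C was higher by 3.33 (SE 0.22, limma adjusted p = 1.29e-06), and the groups lay far apart. From 0H to 4H its mean changed by −1.33 at 40 °C and by −3.60 at 25 °C. The other organelle gene with a matched symbol, the plastid ATP synthase gene atpI, did not have this pattern. It read 7.60 at 40 °C and 9.03 at 25 °C on average at 0H, and its 4H difference was −0.76 (SE 0.36, limma adjusted p = 0.0772).

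Most of the other OsAffx members are not listed with a gene and are given by ID. OsAffx.32294.1.S1_at read 7.002, 6.86 and 6.73 at 40 °C and 5.74, 5.67 and 5.65 at 25 °C at 0H. The 4H arrays read 6.23, 6.07 and 5.70 at 40 °C, and 1.97, 2.28 and 2.43 at 25 °C, below log2 4, so the level at 40 °C was higher by at least 2.0004 against log2 4. OsAffx.32278.1.S1_at was higher by at least 1.17 in the same way. In 35 of the 77 OsAffx members all 25 °C arrays at 4H lay below log2 4 while all 40 °C arrays lay above it. The same held for 609 of all 17650 probe sets tested. Among the 878 tested OsAffx probe sets with a 0H mean at 40 °C of at least log2 5, members included, it held for 41. OsAffx.4971.1.S1_at had the largest 0H difference of all members, 2.96, with 4.88, 4.88 and 5.41 at 40 °C against 1.47, 1.91 and 2.93 at 25 °C. At 4H it was below log2 4 on all arrays. At the top of the signal range lay OsAffx.24369.1.S1_s_at, with 12.38, 12.36 and 12.37 at 40 °C against 11.75, 11.65 and 11.53 at 25 °C. It was higher at 40 °C by 1.08 at 4H.

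The ID numbers of these probe sets are not spread evenly. Of the 77 OsAffx members, 44 have a number from 32194 to 32346, a run seen after the values were known and given without a test. The array holds 246 probe sets in that run, of which 108 were tested and 1 tested one is listed with a gene. All 44 members in the run were higher at 4H, but in 28 of them all 25 °C arrays at 4H were below log2 4. With values below log2 4 set to 4 their median difference was 1.89. The other 64 tested probe sets of the run went both ways. At 0H 18 were higher and 21 lower at 40 °C without overlap, and at 4H 22 were called higher and 7 lower at 40 °C. Their medians were −1.05 at 0H and −0.41 at 4H. Probe sets that share a number are not independent, since 22 of the 77 OsAffx members share their number with another member. In 6 numbers the members include both letters S and A, which the manufacturer uses for sense and antisense targets.

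**Figure D4:**
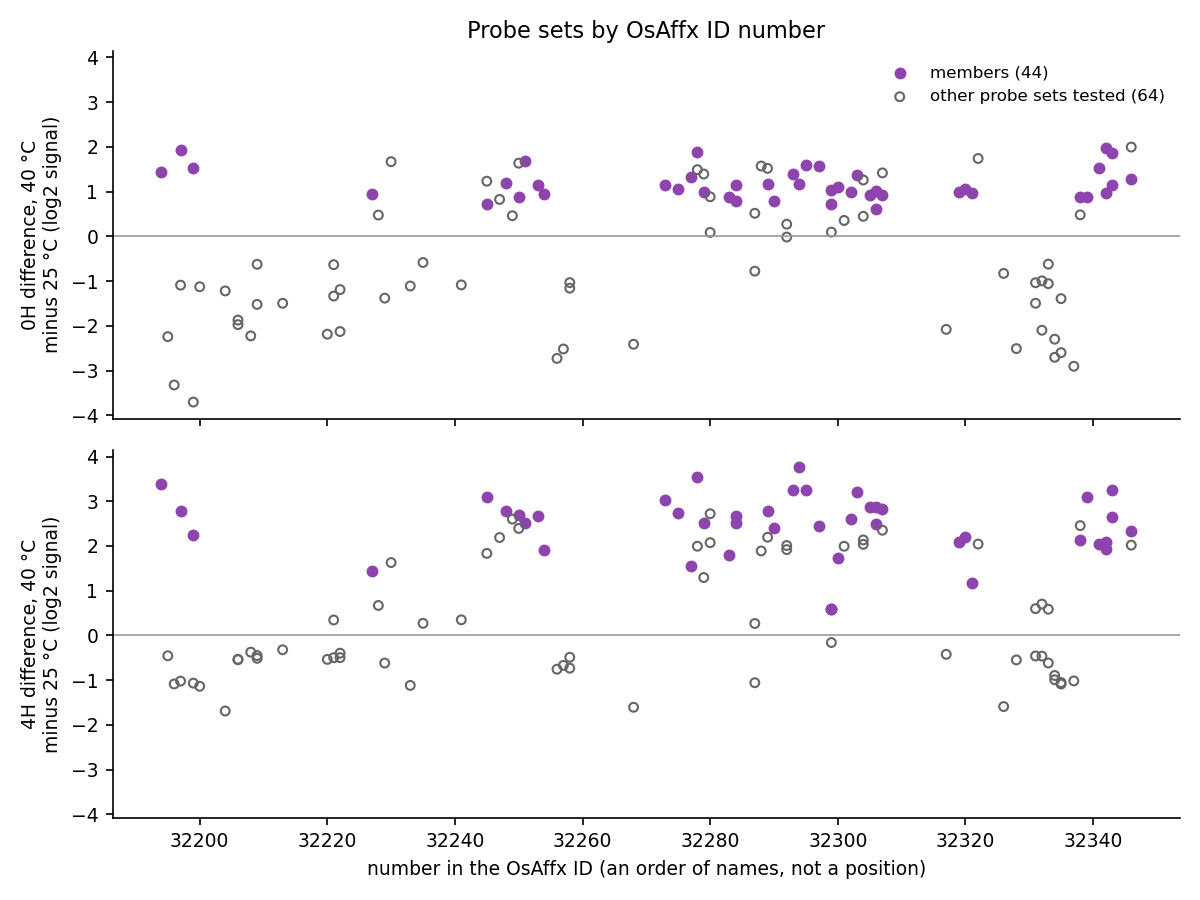
Difference in mean log2 signal, 40 °C minus 25 °C, at 0H (top) and at 4H (bottom) for the 108 tested probe sets with OsAffx numbers 32194 to 32346, in the order of the number in the ID. Differences are plotted as measured, also where signals are below log2 4 and carry no size. All 44 members lie above 0 at 4H, and the other 64 lie on both sides of 0 at each suffix.

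From 0H to 4H the members mostly went down, at both temperatures. These differences share the 0H arrays with the rule, so they carry no test. At 40 °C all 4H arrays lay below all 0H arrays in 141 members, and at 25 °C in 111, where 47.6% and 42.1% of all probe sets tested did so. Members also had to reach log2 5 at 0H and 40 °C. Of the 11525 tested probe sets that did, 6928 lay below at 40 °C and 6214 at 25 °C. Of the 878 with an OsAffx ID among these, 557 and 561 did. In the OsAffx members the median level was 6.07 at 4H and 6.94 at 0H at 40 °C, and 3.57 at 4H and 5.69 at 0H at 25 °C. The 4H level was without overlap below the 0H level in 65 of these 77 members at 40 °C and in 66 at 25 °C. In the Os members the median level was 5.26 at 4H and 5.82 at 0H at 40 °C, and 4.91 at 4H and 5.13 at 0H at 25 °C. With values below log2 4 set to 4, the 4H difference was larger than the 0H difference in 61 of the members called higher, and 45 of these are OsAffx.

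**Figure D5:**
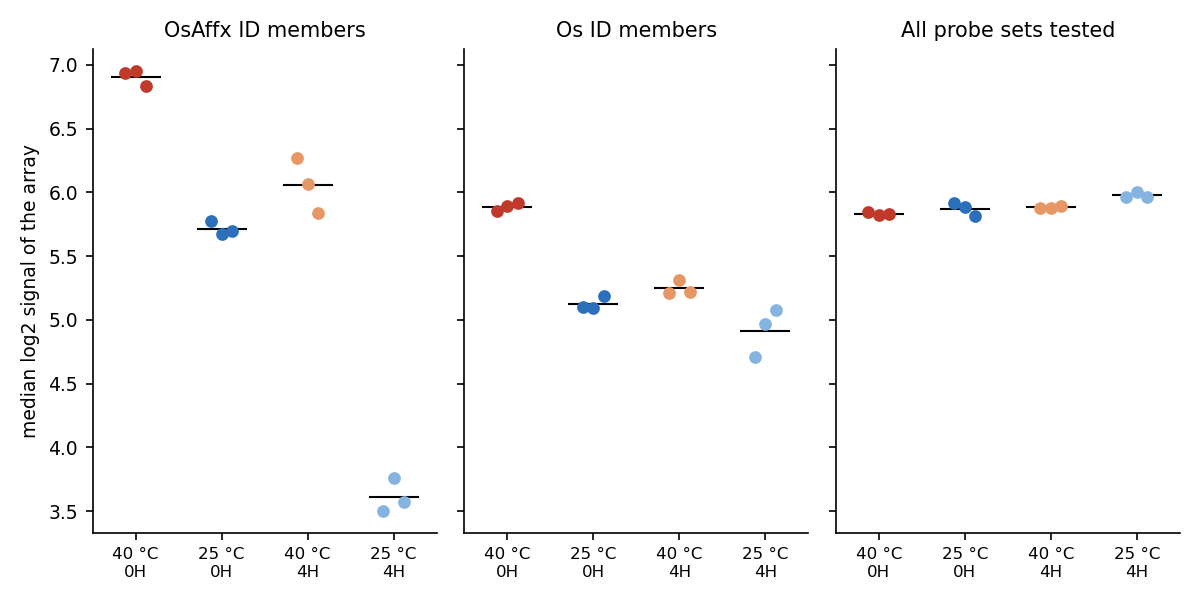
Median log2 signal per array (vertical) over the 77 OsAffx members, the 106 Os members and all 17650 probe sets tested, in the 4 groups, with the mean of 3 arrays as a bar. The OsAffx medians are 5.84 to 6.27 at 40 °C and 3.50 to 3.76 at 25 °C at 4H, while the medians over all probe sets tested lie between 5.82 and 6.01 on all 12 arrays. The vertical axis does not start at 0.

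HSFA2A, a heat stress transcription factor, has 1 member among 3 probe sets, which read 7.88, 7.47 and 8.01 at 40 °C and 7.20, 7.44 and 6.68 at 25 °C at 0H. Its 4H signals were 6.01, 5.92 and 5.91 at 40 °C and 4.03, 3.97 and 4.86 at 25 °C, higher at 40 °C by 1.66 (SE 0.21, limma adjusted p = 7.18e-05). In both groups its 4H level was below its 0H level. Of the 18 other tested heat stress factors 11 were higher and 3 lower at 40 °C than at 25 °C at 4H, with a median difference of 0.94. At 0H 3 of these 18 were higher and 9 lower at 40 °C without overlap, with a median difference of −0.16. None of the 22 tested heat shock proteins and chaperones is a member, and at 4H 15 of them were higher and 2 lower at 40 °C. The list of late embryogenesis abundant proteins and dehydrins also holds no member. At 4H 3 of its 5 tested genes were lower and none higher at 40 °C. Of 23 tested protein disulfide isomerases and thioredoxins, none of them a member, 4 were higher and 14 lower at 40 °C at 4H.

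BIPP2C1, a type 2C protein phosphatase, read 7.35, 7.55 and 7.75 at 40 °C and 6.71, 6.81 and 6.62 at 25 °C at 0H. At 4H its signals were 8.90, 8.94 and 8.52 at 40 °C and 7.33, 7.26 and 7.59 at 25 °C, higher at 40 °C by 1.39 (SE 0.13, limma adjusted p = 8.31e-06). Its 4H level was above its 0H level at both temperatures. Of 49 other tested phosphatases of this type 19 were higher and 19 lower at 40 °C than at 25 °C at 4H. MODD, a repressor of abscisic acid signalling in rice, differed by 0.82 at 0H and was below log2 4 at 4H, with means of 2.89 at 40 °C and 3.19 at 25 °C (limma adjusted p = 0.276).

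IAA20, of the Aux/IAA repressors of auxin responses, read 4.89, 5.19 and 5.103 at 40 °C and 4.28, 4.80 and 4.28 at 25 °C at 0H. At 4H it read 4.84, 4.62 and 4.84 at 40 °C and 2.89, 3.05 and 3.71 at 25 °C, and the level at 40 °C was higher by at least 0.77 against log2 4 (limma adjusted p = 0.000105). Of 15 other tested Aux/IAA genes 4 were higher and 10 lower at 40 °C than at 25 °C at 4H. DOF5, a Dof zinc finger transcription factor, read 6.05, 6.18 and 6.02 at 40 °C and 5.47, 5.30 and 5.26 at 25 °C at 0H. It was higher at 40 °C by 0.62 at 4H (SE 0.14, limma adjusted p = 0.00251). Of 3 other tested Dof genes at 4H, DOF1 was higher at 40 °C by 0.88, DOF4 was lower by 1.22 on the log2 scale and 1 did not pass.

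Other members stood on opposite sides at the 2 suffixes. ADIPOR1, of a family of membrane receptors related to adiponectin receptors, read 5.29, 5.31 and 5.60 at 40 °C and 3.24, 3.66 and 3.91 at 25 °C at 0H, where all 25 °C arrays were below log2 4. At 4H the arrays read 5.01, 4.98 and 4.29 at 40 °C and 5.84, 5.84 and 6.12 at 25 °C, and it was lower at 40 °C (−1.17, SE 0.19, limma adjusted p = 0.000354). Its level had gone down from 0H to 4H at 40 °C and up at 25 °C. SPP2, a signal peptide peptidase, which cleaves proteins within membranes, read 6.48, 6.73 and 6.51 at 40 °C and 7.48, 7.07 and 6.99 at 25 °C at 4H (−0.61, SE 0.14, limma adjusted p = 0.00268), after a 0H difference of 0.64. COPT5.1, a copper transporter, read 4.97, 4.89 and 4.91 at 40 °C and 5.51, 5.68 and 5.69 at 25 °C at 4H (−0.70, SE 0.11, limma adjusted p = 0.000267), after a 0H difference of 0.63. The other tested copper transporter, COPT1, was lower at 40 °C than at 25 °C by 0.67 at 4H on the log2 scale.

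OsSPO11B, related to the topoisomerase-like proteins that cut DNA in meiosis, read 5.22, 5.27 and 5.41 at 40 °C and 4.39, 4.77 and 4.57 at 25 °C at 0H. At 4H it was below log2 4 on all arrays, with means of 1.71 at 40 °C and 2.48 at 25 °C, so no size is given (limma adjusted p = 0.0293). That call was lost without replicate 3 at 40 °C (adjusted p = 0.107) and without replicate 2 or replicate 3 at 25 °C (adjusted p = 0.0587 and 0.0983). OsPht1;4, a phosphate transporter, differed by 0.76 at 0H and had means of 2.84 at 40 °C and 2.73 at 25 °C at 4H, under log2 4 (limma adjusted p = 0.709). TOGR1, a DEAD-box RNA helicase linked to growth at high temperature, differed by 0.69 at 0H and by −0.07 at 4H (SE 0.14, limma adjusted p = 0.653). Without replicate 3 at 25 °C the 4H difference of TOGR1 was −0.23 (adjusted p = 0.0480).

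Among members with a locus identifier only, singled out after their values were seen, LOC4342551 (OsAffx.24280.2.S1_at) had the largest 4H difference in the opposite direction. It read 7.65, 7.35 and 7.16 at 40 °C and 6.54, 6.82 and 6.75 at 25 °C at 0H, and 6.60, 6.84 and 6.43 at 40 °C and 9.91, 9.67 and 10.01 at 25 °C at 4H (−3.24, SE 0.12, limma adjusted p = 1.31e-07). Its level at 25 °C was higher at 4H than at 0H, and its level at 40 °C was lower. LOC4341855 differed by −1.93 at 4H (SE 0.11). In the other direction LOC9272517 read 9.23, 9.11 and 8.73 at 40 °C and 6.28, 6.30 and 6.92 at 25 °C at 4H. It was higher at 40 °C by 2.52 (SE 0.18, limma adjusted p = 1.91e-06), the largest such 4H difference among the Os members.

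Other tested probe sets of the members' genes are counted here only where they are not members. They had thus not met the 0H rule, so smaller or overlapping 0H differences were partly fixed in advance. A second probe set that met the rule, as in GBSS1 and SBE, is itself a member and is left out. Of the 79 genes, 27 have another tested probe set that is not a member, 38 in all. At 0H 10 of these 38 were higher and 5 lower at 40 °C without overlap, 23 overlapped, and their median difference was 0.07. The 2 other probe sets of TOGR1 were lower at 40 °C at 0H (−0.65 and −0.15). The second tested probe set of SPP2 was also lower at 0H (−0.28). For IAA20 the other probe sets differed by −0.20 and −0.16, for OsSPO11B by −0.08, and for MODD by 0.06, with overlap. For SBE the other tested probe sets differed by −0.05 and 0.16, for PROLM25 by 0.21, and for RA14 by 0.42 and 0.71, all with overlap. The other tested probe set of ADIPOR1 was higher without overlap, with means under log2 4 (3.73 at 40 °C and 3.09 at 25 °C). Where a gene has several such probe sets, they are given in turn. For HSFA2A the other probe sets differed by 0.56 without overlap and by 0.05 with overlap.

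At 4H, which the rule did not use, the calls of these probe sets can be set beside those of the members. They cannot be compared with the 0H counts, which the rule shaped. Of 14 such probe sets whose gene has a member that was higher at 4H, 12 were higher and 1 was lower. Of 9 whose gene has a member that was lower, 8 were lower and 0 higher. Both other probe sets of HSFA2A were called higher, with means of 4.07 and 3.58 at 40 °C against 2.40 and 2.60 at 25 °C. Both of IAA20 were also called higher, with means of 4.54 and 5.06 at 40 °C against 3.25 and 3.69 at 25 °C. These 25 °C means lie below log2 4, so no size is given. The other tested ADIPOR1 and SPP2 probe sets were lower at 40 °C than at 25 °C at 4H. For RA14 the member was not called, whereas Os.5529.4.S1_x_at was lower at 40 °C by 0.92 on the log2 scale (SE 0.31, limma adjusted p = 0.0205). Probe sets of 1 gene share their RNA and can share probes, so these counts are descriptions.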

How the data were processed

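The deposited values are log2 signals per probe set, made by the authors with GCRMA (no version given), per the submitters' processing notes. Their base of 2 was inferred from the range of the values. GCRMA corrects background from probe sequence, normalizes across arrays and summarizes probes, so values are relative, and signals under log2 4 were treated as having no size. The genome build is not given in the sources used here. Precision is limited by the 3 arrays per group.

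The members and gene lists were chosen with earlier results of these data known. Python 3.11.15 applied the selection rule. limma 3.58.1 in R 4.3.3 (lmFit, eBayes with trend, two-sided) was fitted to the 6 4H arrays over 17650 probe sets, with Benjamini-Hochberg adjustment and a threshold of 0.05. On simulated data for that comparison, with 17650 probe sets, it recovered 76 of 100 changes of size 1 and 98 of 100 of size 2. Of the 183 calls made on the simulated data 9 were false. Far fewer probe sets changed there than the 12894 called in the real data, so these rates need not hold for the real fit. Control probe sets were compared by exact permutation.

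Genes were named from the platform annotation and a RefSeq table (ASM3414082v1, names and gene order only). The named members were to be the 15 largest 0H differences with a short name, the 10 largest 4H differences in each direction, and up to 4 per list. This took in all 17 genes. Lists were matched by symbol or synonym, so their counts do not describe whole families. Promoter, protein and motif comparisons were not made, and no sequences were used here. Replicate numbers were checked for pairing: same-numbered deviations correlated at 0.061, 0.163 and 0.213, not all above 0.1, so the arrays were not paired. Alternatives were other filters, scalings, variance settings, array sets and member sets.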

Additional observations from a re-analysis of the deposited data

Results flagged for a closer look

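In 28 members all 3 arrays at 40 °C lay above all 3 at 25 °C at 0H, as the rule asks, and below them at 4H, where 44.3% of all probe sets tested lay below without overlap. The difference between the suffixes was not tested, because the 0H arrays chose the members. Among those with a short name the 4H difference was −1.17 for ADIPOR1, −0.61 for SPP2 and −0.70 for COPT5.1. For OsSPO11B it was −0.77 and for AMY3A −0.44, in both with all 4H arrays below log2 4, so that these 2 values carry no size. AMY3A did not pass the test at 4H.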

How the results depend on the processing

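In the 4H fits the members called numbered 78 to 121 higher and 15 to 29 lower. They were 15 lower with a filter at log2 6, under which 114 members were tested, and 101 to 121 higher and 23 to 29 lower without each 4H array in turn. The median difference was 0.41 with values below log2 4 set to 4. Members chosen without replicate 3 at 25 °C and 0H numbered 254, of which 57 were lower at 4H. Members with a 0H difference of at least 1 gave 51 higher and 1 lower. The next alternatives, on replicate 3 and on OsAffx IDs, were chosen after seeing the data. Members chosen with replicate 3 as the single 40 °C array at 0H numbered 256 (147 shared), with 48 lower. Without OsAffx IDs 36 were higher, with a median of 0.20. With the replicate number as a block (replicate block), 110 members were higher and 27 lower. For the 19 named probe sets 263 of 278 alternative values kept direction and call, 6 lost the call and 9 gained one. OsSPO11B also lost its call with median centring (−0.68, adjusted p = 0.0513) and with the floor at log2 4. Array weights gave calls to GBSS1 (Os.11244.2.S1_x_at), PROLM25 and SBE (Os.22169.1.S1_a_at), and eBayes without trend to AMY3A. The causes were not tested.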
